A study of Mus musculus with 12 samples.

Results

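Cytosolic ribosomal proteins are the proteins that, together with ribosomal RNA, form the small and the large subunit of the ribosome in the cytosol. Their genes were found on the array by gene name, as every Rps or Rpl gene with a number, the stalk genes Rplp0, Rplp1 and Rplp2, and Rpsa, and measured values played no part in the choice. The rule found 81 genes among 34797 gene names, measured by 186 of 55681 probes. Mitochondrial ribosomal proteins are not among them.

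Aortic RNA of male mice was hybridized to 12 one-colour microarrays, 3 from each of 4 groups: wild type (WT) before challenge, WT at day 3 of BAPN + AngII challenge, smSocs3-KO before challenge and smSocs3-KO at day 3. All mice carried the floxed Socs3 allele (Socs3 fl/fl) on a mixed background labelled 129S5/SvEvBrd, C57BL6 and SJL, with 3 generations of backcrossing to C57BL/6J for the floxed line (age not given in the sources used here). The smSocs3-KO mice also carried SM22-Cre, a Cre recombinase driven by a smooth muscle promoter, and the WT mice were their littermates without it. Osmotic minipumps delivered both agents of the challenge, BAPN (150 mg/kg/day), which inhibits collagen and elastin crosslinking, and the pressor hormone angiotensin II (AngII; dose 1000 ng/kg/min). SM22-Cre acts in smooth muscle, whereas the arrays read RNA of all cells in the excised aorta. Nothing in the labels states that the 3 arrays of a group came from 3 separate mice, so the p-values measure the spread between these arrays, which may be partly technical.

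Ribosomal protein mRNAs are among the most abundant in growing and resting cells alike, and their products are made in matched amounts. Most of them begin with a C followed by a run of pyrimidines, the 5′ terminal oligopyrimidine (TOP) tract. Through this tract, mTOR complex 1 raises or lowers the translation of these mRNAs and, through the binding protein Larp1, their stability, so that mRNA level and protein output can part. Rps6, a small subunit protein, is itself phosphorylated by the p70 S6 kinase, a widely used readout of mTOR activity. Arrays measure the mRNA level and neither its translation nor the phosphorylation of the protein.

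The windows below run from 10 bases before to 15 bases from the start (RefSeq, GRCm38.p6), with a run of C and T that starts with C at the start site in capitals where it held at least 5 letters. They were chosen to put genes that were called higher in WT (Rpl15, Rps18, Rps2) beside Rps6 and beside genes at the lower end of the response (Rps27, Rps21).
Rpl15, chr14:18270972-18270996, minus strand: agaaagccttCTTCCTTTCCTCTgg
Rps18, chr17:33955651-33955675, minus strand: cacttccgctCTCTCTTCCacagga
Rps2, chr17:24720053-24720077, plus strand: gtcgagatctcgcgcttcttggagc
Rps6, chr4:86857353-86857377, minus strand: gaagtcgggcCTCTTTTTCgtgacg
Rps27, chr3:90213634-90213658, minus strand: cgctttcgctCCTTTCCggcggtga
Rps21, chr2:180257369-180257393, plus strand: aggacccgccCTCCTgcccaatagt

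The tract at the annotated start had 13 letters in Rpl15, 9 in Rps18, 9 in Rps6, 7 in Rps27 and 5 in Rps21 (at 1 of its 2 annotated starts), whereas the annotated start of Rps2 had none. A promoter window was at hand for 61 of the 81 genes, and 13 of them (21.3%) held such a tract at a start, against 813 of all 27025 genes with a window (3.01%), counted on the gene's own strand. A start annotated a few bases away hides a tract, so that the share is that of these windows and not of the mRNAs. The median log2 difference in WT was 0.30 over the 13 tested genes with a tract and 0.30 over the 47 without, with ranges of -0.06 to 0.76 and of -0.34 to 0.74. In smSocs3-KO the medians were 0.06 and 0.05.

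The signal of each probe is given as log2 processed signal relative to the 75th percentile of its array, and a difference between 2 group means on this scale is a log2 difference. A gene was tested where at least 1 of the groups had a probe above background on each of its 3 arrays, which held for 80 of the 81 genes, tested among 22761 genes. The exception was Rpl3l, the striated muscle paralog of Rpl3, whose only probe was well above background on 0 of the 12 arrays. Of the 181 probes kept, 180 were well above background on all 12 arrays, and no spot was saturated. The markers Rps6 and Rpl3 were both measured on every array. The group was tightly measured: the median SD within groups was 0.15 over the 80 genes against 0.32 over all genes tested.

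The label smSocs3-KO was checked on Socs3 itself, which was not lower there (log2 difference from WT 0.49 ± 0.53 (SE) before challenge and 1.52 ± 0.53 at day 3, adjusted p = 1.0 and 0.21 by limma), so the groups are called the arrays labelled smSocs3-KO. All 11 smooth muscle markers listed were measured, with array medians of 5.55 to 6.90 on the log2 signal scale. The arrays lay on 2 slides: slide 1 held all 6 WT arrays and replicate 1 of smSocs3-KO before challenge, and slide 2 held the other 5. At day 3, genotype and slide cannot be told apart except through that 1 array. WT day 3 replicate 4 stood apart from replicates 1 and 3. Relative to WT before challenge, the mean of 13 cell cycle genes was 1.96 on it and 4.52 and 4.42 on the others, that of 11 leukocyte genes was -0.11 against 1.56 and 1.17, and that of the smooth muscle genes was 0.15 against -0.76 and -0.77.

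How far ribosomal protein genes moved as a group depended on the normalization, which is given first because it bears on each result that follows. Their probes sit at the bright end of the array, where 90 of the brightest 557 probes (16.2%) belonged to them. This is a place on the signal scale and not a comparison of mRNA amounts. Scaling to the 75th percentile leaves the bright end free to move: the level exceeded by the brightest 1% of probes lay 6.70 to 6.79 above the 75th percentile on the WT arrays before challenge and 7.09, 7.09 and 6.87 above it on those at day 3. Quantile normalization makes this distance equal on all arrays. The median log2 difference of the 80 genes in WT was 0.27 with scaling to the 75th percentile and 0.05 with quantile normalization (47 of 80 genes higher, 0 called), and it was 0.05 in the values the authors deposited after quantile normalization (48 higher, 0 called). It was 0.47 with scaling to the array median, which moved the median of all genes to 0.17. Directions given for the whole group are on the 75th percentile scale unless stated.

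**Figure D1:**
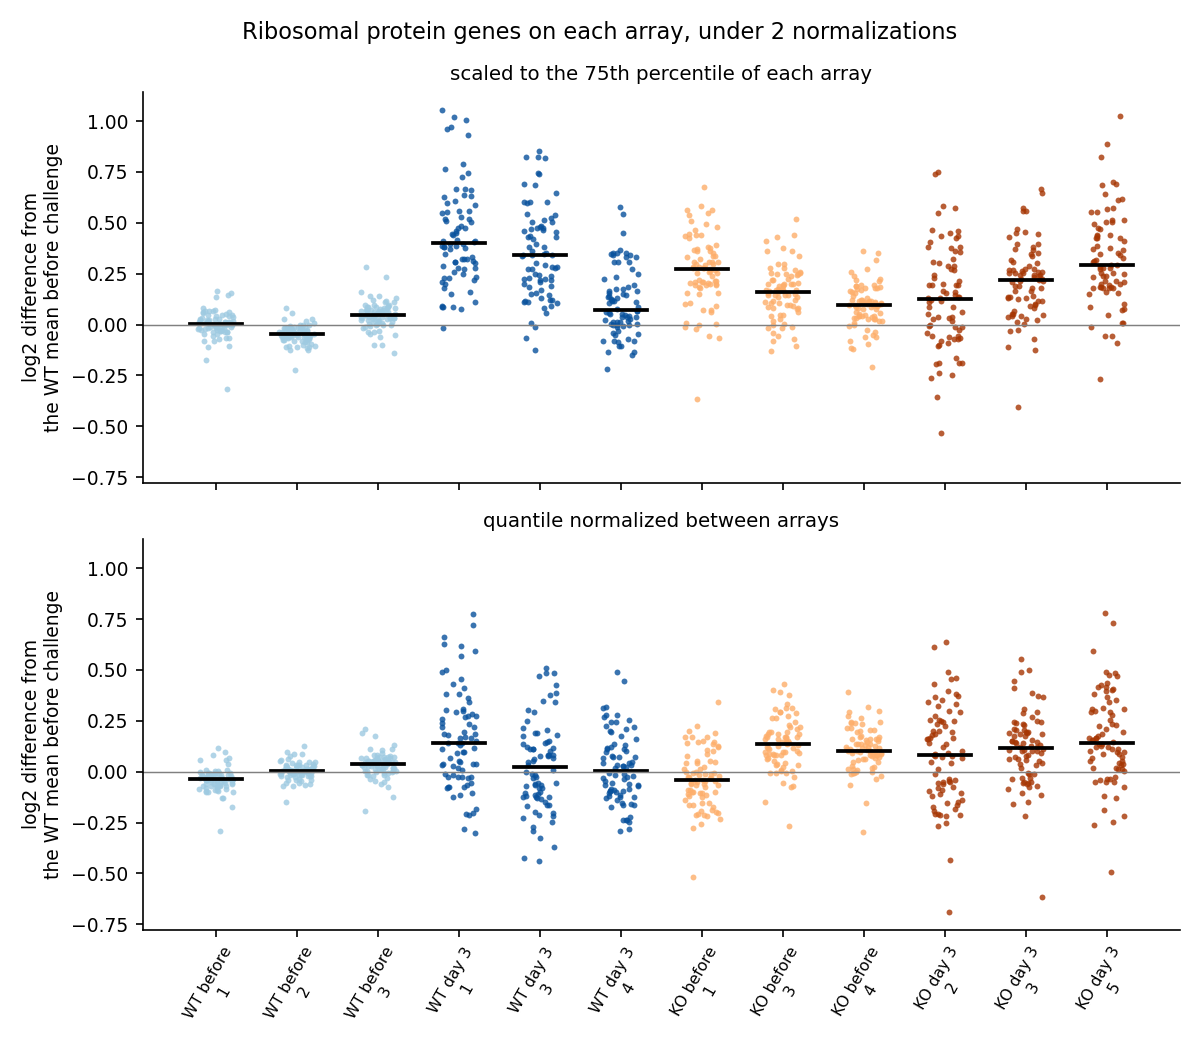
Log2 difference of each ribosomal protein gene (points) from the mean of the WT arrays before challenge, on each of the 12 arrays, with the median of all 80 genes as a black bar, scaled to the 75th percentile (top) or quantile normalized (bottom); Rpl10l and Rpl39l, which are dim, enter the bars but are not drawn as points. With the first scaling the bars of WT day 3 replicates 1 and 3 lie at 0.40 and 0.34 and that of replicate 4 at 0.07; with the second they lie at 0.14, 0.02 and 0.00.

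In WT mice, BAPN + AngII challenge raised 4 ribosomal protein genes past the threshold, Rpl15, Rps18, Rps2 and Rplp1, by 1.52-fold to 1.70-fold, and lowered none. The 4 of 80 genes (5%) compare with 3.59% of all genes tested called higher at an adjusted p under 0.05 by limma, and the 0 lower with 1.09%. The called share of the group was thus near that of all genes. The direction was more uniform: 77 of 80 genes were higher at day 3 (96.2%) against 48.4% of all genes, and 28 had an unadjusted p under 0.05 in the higher direction (35%) against 15.9%. In 41 genes (51.2%) the 3 day 3 arrays all lay above the 3 arrays before challenge, against 20.7% of all genes, and in 0 genes did they all lie below, against 14.6%. The sizes were small, with 80% of the genes between 0.06 and 0.61 and a median of 0.27, against a median of -0.02 for all genes. The median was 0.27 over the 32 small subunit genes and 0.27 over the 48 large subunit and stalk genes. No gene of the group passed the study's threshold of p under 0.01 with a 4-fold change, which 1.28% of all genes passed, nor in smSocs3-KO, where 1.63% did.

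Rpl15, a large subunit protein, had the largest difference. Its log2 signal was 6.36, 6.37 and 6.53 in WT before challenge, 7.44, 7.11 and 7.0014 in WT at day 3, 6.42, 6.86 and 6.69 in the arrays labelled smSocs3-KO before challenge and 7.17, 7.07 and 7.12 in those at day 3. All challenged arrays lay above all unchallenged ones in both genotypes. The log2 difference was 0.76 ± 0.17 (SE) in WT (adjusted p = 0.037 by limma) and 0.46 ± 0.17 in smSocs3-KO (adjusted p = 0.14).

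Rps18, a protein of the small subunit, came next. Its log2 signal was 5.88, 5.83 and 6.02 in WT before challenge, 6.92, 6.74 and 6.36 at day 3, 5.91, 6.32 and 6.26 in smSocs3-KO before challenge and 6.65, 6.58 and 6.94 at day 3. Here too the groups did not overlap in either genotype, with the lowest WT value at day 3 on replicate 4. The log2 difference was 0.76 ± 0.19 in WT (adjusted p = 0.048 by limma) and 0.56 ± 0.19 in smSocs3-KO (adjusted p = 0.12).

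Rps2, another small subunit protein, was at 6.20, 6.32 and 6.39 in WT before challenge and at 7.36, 7.12 and 6.64 at day 3 on the same log2 signal scale. In smSocs3-KO it was at 6.49, 6.64 and 6.52 before and at 6.75, 6.74 and 6.95 at day 3. The groups were separate in both genotypes. The log2 difference was 0.74 ± 0.19 in WT (adjusted p = 0.049 by limma) and 0.26 ± 0.19 in smSocs3-KO (adjusted p = 0.40).

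The stalk of the large subunit, which recruits elongation factors, is built from Rplp0, Rplp1 and Rplp2. Rplp1 was at 7.90, 7.67 and 7.70 log2 signal in WT before challenge and at 8.52, 8.44 and 8.11 at day 3, a log2 difference of 0.60 ± 0.15 (adjusted p = 0.049 by limma). The other stalk genes had differences in WT of 0.64 ± 0.18 for Rplp0 (adjusted p = 0.060) and 0.40 ± 0.15 for Rplp2 (adjusted p = 0.13). All 3 stalk genes had WT groups that did not overlap, and the lowest day 3 value of each was that of replicate 4. In smSocs3-KO the stalk genes had differences of 0.24, 0.13 and 0.08, with standard errors of 0.18, 0.15 and 0.15. Rpsa, a small subunit protein that is also known as a laminin receptor, overlapped between the WT groups, with a difference of 0.44 ± 0.24 (adjusted p = 0.26).

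Rps6, the S6 kinase substrate, was at 7.07, 7.07 and 7.18 in WT before challenge and at 7.52, 7.35 and 7.27 at day 3. In smSocs3-KO it was at 7.32, 7.41 and 7.33 before and at 7.41, 7.45 and 7.53 at day 3. The 2 WT groups were separate, and both smSocs3-KO groups lay within or near the range of WT at day 3. Its differences did not pass the threshold, at 0.27 ± 0.13 in WT (adjusted p = 0.21 by limma) and 0.12 ± 0.13 in smSocs3-KO (adjusted p = 0.60). Rpl3, which lies near the peptidyl transferase centre, differed by 0.26 ± 0.16 in WT (adjusted p = 0.32) and by 0.01 ± 0.16 in smSocs3-KO (adjusted p = 0.99).

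At the lower end of the WT response were Rpl10l, Rps27 and Rps29. Rps27 and Rps29 are small zinc-binding proteins of the small subunit. Rps27 was at 7.96, 7.91 and 8.01 before challenge and at 7.94, 7.89 and 7.88 at day 3 in WT, a difference of -0.06 ± 0.14. Rps29 was at 8.14, 8.12 and 8.27 before and at 8.26, 8.17 and 8.10 at day 3, a difference of -0.00 ± 0.14. For both genes the WT groups overlapped, and the 95% intervals of the difference were -0.36 to 0.25 and -0.31 to 0.30. Rpl10l is described with the paralogs.

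**Figure D2:**
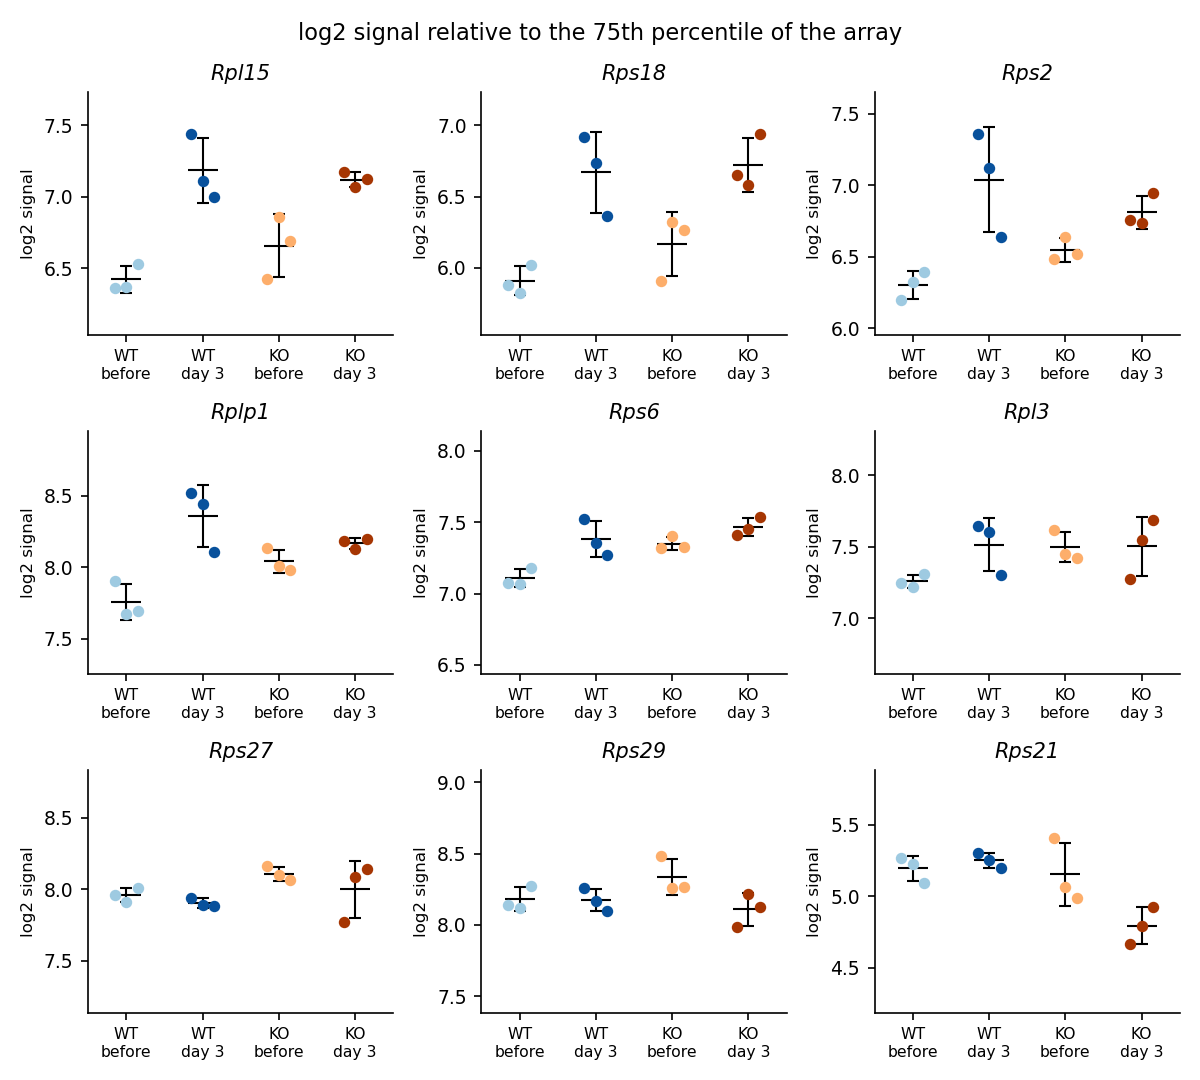
Log2 signal relative to the 75th percentile of the array for 9 ribosomal protein genes, with 1 point per array and the mean ± SD of the 3 arrays of each group (KO, arrays labelled smSocs3-KO); every panel spans the same length of axis, and the levels of different genes are not comparable. Rpl15, Rps18, Rps2 and Rplp1 are higher at day 3 in WT without overlap, Rps27 and Rps29 overlap between the WT groups, and Rps21 is lower at day 3 in smSocs3-KO.

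These calls rested on few arrays. Without WT day 3 replicate 4, the median WT difference was 0.36 and 19 genes were called higher and 0 lower, whereas without replicate 1 or 3 of WT at day 3, or without any one WT array before challenge, 0 were called. Leaving out smSocs3-KO arrays, which this comparison does not contrast, moved the count too. It was 0 without replicate 4 before challenge, or without replicate 2 or 3 at day 3. It was 1 without replicate 3 before challenge or replicate 5 at day 3, and 10 without replicate 1 before challenge. The calls over all 22761 genes moved as well. Without WT day 3 replicate 4, 2268 were called higher and 1360 lower. Without any one of the other 5 WT arrays, 0 to 5 were called higher, and without any one smSocs3-KO array, 1 to 1561. Rpl15, Rps18, Rps2 and Rplp1 were higher under all 26 alternative settings, with lowest log2 differences of 0.50, 0.43, 0.43 and 0.34, and were called in 8, 6, 7 and 8 of them. With quantile normalization their WT differences were 0.52 ± 0.17, 0.44 ± 0.16, 0.48 ± 0.16 and 0.38 ± 0.13, with adjusted p by limma of 0.099, 0.13, 0.11 and 0.10.

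In the arrays labelled smSocs3-KO, challenge gave no called gene in either direction by limma, against 1.71% of all genes called higher and 0.734% called lower. At an unadjusted p under 0.05, 5 genes were higher (Rpl15, Rpl18, Rpl39, Rpl39l and Rps18) and 1 was lower (Rps21), and the 5 of 80 (6.25%) compare with 12.8% of all genes and the 1 with 11%. The median difference was 0.04, with 47 of 80 genes higher (58.8%, against 44.6% of all genes), and 80% of the genes lay between -0.17 and 0.29. The groups did not overlap in 15 genes that were higher (18.8%, against 14.1% of all genes) and in 2 that were lower, Rps21 and Rps29 (2.5%, against 14%). Rps21, a small subunit protein, was at 5.41, 5.06 and 4.99 before challenge and at 4.66, 4.79 and 4.93 at day 3, a difference of -0.36 ± 0.15 (adjusted p = 0.19). On slide 2 alone, which leaves out replicate 1 before challenge, the median difference was 0.08.

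Before challenge, the arrays labelled smSocs3-KO were slightly higher than WT across most of the group, with no gene called by limma in either direction, against 0.0264% of all genes called higher and 0% lower. The median difference was 0.18, 75 of 80 genes were higher (93.8%, against 50.6% of all genes), and in 38 genes (47.5%, against 6.48%) the 3 smSocs3-KO arrays all lay above the 3 WT arrays. In 1 gene, Rpl39l, they all lay below (against 4.6%). At an unadjusted p under 0.05, 0 genes were higher (against 1.88%) and Rpl39l was lower (against 2.51%). This comparison and the WT response share the WT arrays before challenge. By array, the median of the group lay 0.27, 0.16 and 0.10 above the WT mean on replicates 1, 3 and 4. Replicate 1 is the one that shared slide 1 with the WT arrays, so that the difference within slide 1 was 0.27, from 1 array of smSocs3-KO. With quantile normalization the same 3 arrays lay at -0.04, 0.14 and 0.10, so that replicate 1 went from the highest to the lowest. Rps13, Rps27a and Rplp1 had the highest differences, at 0.35 ± 0.18, 0.29 ± 0.17 and 0.28 ± 0.15. The lowest were larger in size and belonged to 2 dim genes, at -1.25 for Rpl39l and -0.77 ± 0.36 for Rpl10l.

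At day 3, the genotype difference was -0.06 in the median, with 15 of 80 genes higher (18.8%, against 40.5% of all genes) and 0 called by limma in either direction, against 0.958% of all genes called higher and 0.154% lower. The sign of this median was not stable: it was 0.07 with quantile normalization, 0.10 with scaling to the array median and 0.09 with slide as a block. The groups did not overlap in 4 genes that were lower in smSocs3-KO, Rpl10, Rpl31, Rpl39l and Rps21 (5%, against 12.7%), and in 0 that were higher (against 7.86%); they are named here for that reason and were chosen after their values were seen. Rps21 was at 5.31, 5.25 and 5.20 in WT and at 4.66, 4.79 and 4.93 in smSocs3-KO, a difference of -0.46 ± 0.15 (adjusted p = 0.19 by limma). At an unadjusted p under 0.05, 0 genes were higher (against 7.77% of all genes) and 2 were lower, Rpl10l and Rps21 (against 8.42%). Rps13, Rpl8 and Rps27 had the highest differences, at 0.19 ± 0.18, 0.15 ± 0.15 and 0.10 ± 0.14. The lowest were again those of the dim genes, at -0.94 for Rpl39l and -0.82 ± 0.36 for Rpl10l.

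The direct test of whether the challenge response differed between genotypes found no gene in either direction by limma, in the group (0 of 80) as among all genes (0% higher, 0% lower). At an unadjusted p under 0.05, 2 genes were lower, Rpl10 and Rplp1, and 0 were higher, against 2.65% and 2.68% of all genes. The interaction was negative in 79 genes and positive in Rpl39l, against 44% positive among all genes, with a median of -0.24 that became -0.02 with quantile normalization, where 36 of 80 were positive. Its largest sizes were -0.52 ± 0.34 for Rpsa, -0.47 ± 0.21 for Rplp1 and -0.47 ± 0.26 for Rps2, and its highest values were 0.31 ± 0.64 for Rpl39l, -0.02 ± 0.26 for Rpl7a and -0.03 ± 0.24 for Rps7. The interaction holds all 12 arrays, and it shares its arrays with each comparison above.

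**Figure D3:**
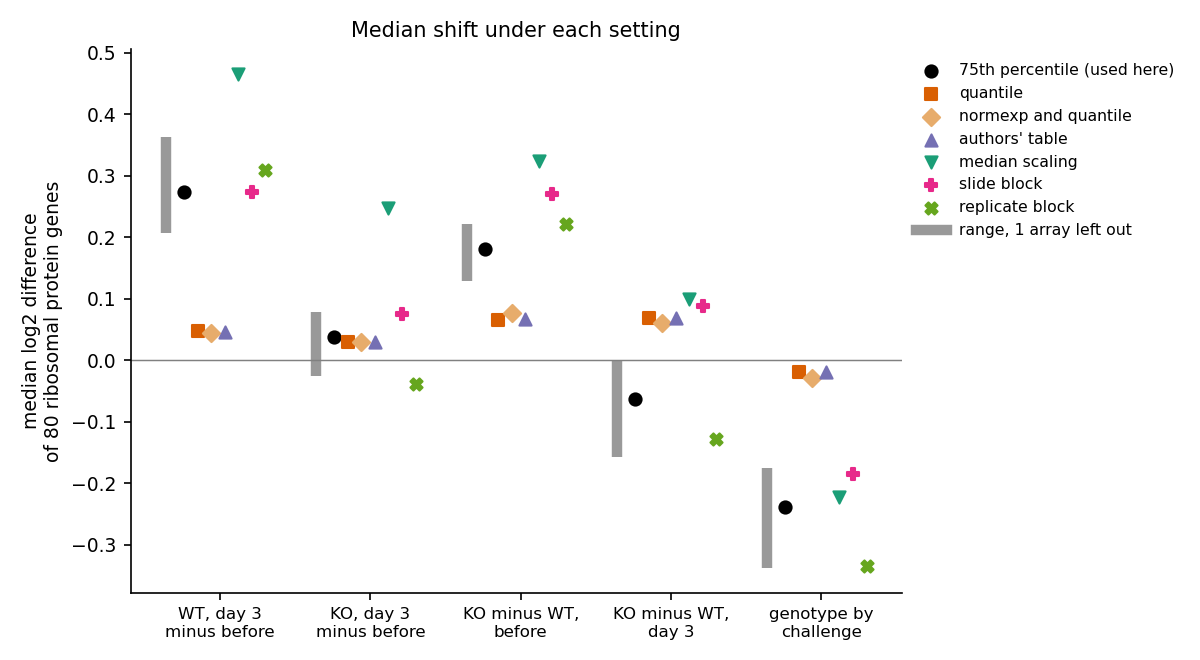
Median log2 difference of the 80 ribosomal protein genes in each of the 5 comparisons (KO, arrays labelled smSocs3-KO) under different normalizations and fits (symbols) and its range when each array was left out in turn (grey bars). The WT difference falls from 0.27 to 0.05 with quantile normalization, and the genotype difference at day 3 changes sign.

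While the level of the whole group moved with the normalization, the correlation of its members' responses between the 2 genotypes moved less. Ribosomal protein genes that responded most in WT also responded most in smSocs3-KO, in arrays that the 2 comparisons do not share. Across the 80 genes, the log2 differences of the 2 genotypes had a Spearman correlation of 0.85 and a Pearson correlation of 0.83, and over all genes tested the Spearman correlation was 0.68. Without the dim genes Rpl10l and Rpl39l the coefficients were 0.84 and 0.84 over 78 genes, and with quantile normalization the Spearman correlation over the 80 genes was 0.82. Taken from different probes, the WT response of a gene's brightest probe and the smSocs3-KO response of its other probes, the Spearman correlation was 0.47 over the 57 genes that allow it. The genes share the arrays, the slides and in part the probe sequences, so they are not independent points. The WT response had correlations of -0.20 with the mean signal of the gene and 0.21 with the GC content of its probe, and the smSocs3-KO response of -0.33 and 0.16 (Spearman).

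**Figure D4:**
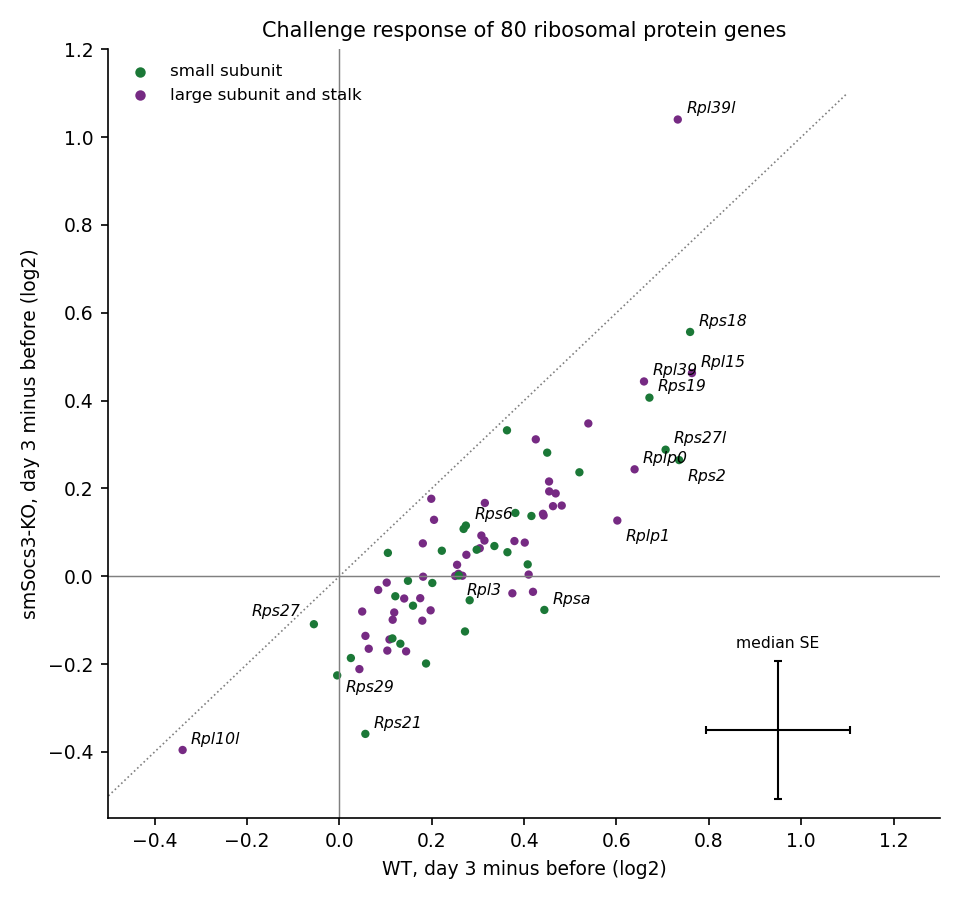
Log2 difference between day 3 and before challenge in the arrays labelled smSocs3-KO (y axis) against that in WT (x axis) for the 80 ribosomal protein genes, with the dotted line marking equal responses and the cross the median standard error. All points but that of Rpl39l lie below the line, from Rpl10l at the lower left, past Rps29 and Rps21, to Rpl15 and Rps18 at the upper right; with quantile normalization the shift off the line is -0.02 in the median.

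Set against the median of the 80 genes on the same array, which takes the shift of the whole group away, 18 genes lay higher at day 3 without overlap in WT (22.5%, against 11% of all genes) and 15 in smSocs3-KO (18.8%, against 11.6%). The genes on both lists were 8 (against 4.86% of all genes): Rpl15, Rpl18, Rpl27a, Rpl39, Rplp0, Rps18, Rps19 and Rps2. Lower without overlap were 16 genes in WT (20%, against 28.1%) and 12 in smSocs3-KO (15%, against 16.4%), and 9 on both lists (11.2%, against 9.73%): Rpl31, Rpl37, Rpl37a, Rpl4, Rpl9, Rps14, Rps20, Rps21 and Rps29. These genes were named after their values were seen. In a limma fit on this scale, 0 of the 80 genes were called in any comparison. The scaling to the group's own median moved the median difference of all genes to -0.28 in WT and -0.11 in smSocs3-KO. That of the 80 genes was left at 0.016 and -0.0093. The shares of all genes given here carry this shift, so the shares of the group cannot be judged against them. On this scale Rpl15 had values of 0.65, 0.44 and 0.43 on the WT arrays at day 3 relative to WT before challenge, -0.28, 0.32 and 0.17 in smSocs3-KO before challenge and 0.62, 0.46 and 0.38 at day 3. Rps21 had values of -0.26, -0.19 and -0.15 in WT at day 3, -0.07, -0.26 and -0.31 in smSocs3-KO before challenge and -0.67, -0.60 and -0.59 at day 3. Rps19, a small subunit protein mutated in Diamond-Blackfan anaemia, and Rpl39, a small protein of the exit tunnel, differed by 0.41 and 0.40 in WT and by 0.36 and 0.40 in smSocs3-KO from the group.

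The paralogs differed among themselves. Rpl10l and Rpl39l, copies known for expression in testis, were dim, with group means of -2.22 to -3.38 and -2.56 to -4.54 on the log2 signal scale. Rpl39l was at -3.82, -2.29 and -3.77 in WT before challenge, -2.70, -2.08 and -2.90 in WT at day 3, -5.24, -4.11 and -4.27 in smSocs3-KO before challenge and -3.67, -3.90 and -2.93 at day 3. It was well above background on 11 of the 12 arrays and its differences of 0.73 ± 0.46 in WT and 1.04 ± 0.46 in smSocs3-KO did not pass the adjusted threshold (adjusted p = 0.32 and 0.20 by limma, and unadjusted 0.14 and 0.044). Rpl10l had the lowest difference in both genotypes, at -0.34 ± 0.36 and -0.40 ± 0.36. Rps27l, a paralog of Rps27 that is induced by p53, was at 4.77, 4.83 and 5.23 in WT before challenge and at 5.92, 5.55 and 5.49 at day 3. Its WT difference of 0.71 ± 0.20 (adjusted p = 0.062) stood against -0.06 ± 0.14 for Rps27, and the difference between the 2 genes was not tested.

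Of the 81 genes, 59 had 2 or more probes, up to 7, and 57 had 2 or more kept ones, which allows a check of the brightest probe that stood for each. The WT responses of the brightest probe and of the mean of the gene's other probes had a Spearman correlation of 0.70 across the 57 genes, and the smSocs3-KO responses of 0.59. The probes of 1 gene differed by a median of 0.17 in the WT response, close to the SD of 0.19 between genes, and by 0.09 in the 27 genes with exactly 2 probes. The probes differed in sign in 6 genes in WT, in 20 of the 57 in smSocs3-KO, and in 1 between genotypes before challenge and 25 at day 3. Fitted probe by probe, 4 of 181 probes were called higher in WT by limma against 2.56% of all probes, and 0 lower against 1.14%, and they were those of Rpl15, of Rps6 and, by 2 probes, of Rpl13a.

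In Rps6 the probes disagreed in size. The brightest, at mm9 chr4:86500748-86500807, gave 0.27 ± 0.14 in WT and 0.24 ± 0.14 between genotypes before challenge. A dim probe at chr4:86500063-86500122, further along the minus strand, was at 2.16, 2.20 and 2.37 in WT before challenge, 2.98, 2.87 and 2.97 in WT at day 3, 3.04, 3.15 and 2.86 in smSocs3-KO before challenge and 2.95, 2.94 and 2.85 at day 3. On this probe WT before challenge was the only group set apart, and the differences were 0.70 ± 0.14 in WT (adjusted p = 0.036 by limma over all probes) and 0.78 ± 0.14 between genotypes before challenge (adjusted p = 0.19). In Rpl13a the brightest probe gave 0.38 ± 0.18 (adjusted p = 0.20) and both dim ones 0.90 ± 0.21 (adjusted p = 0.043 and 0.044). For the called genes, the other probes of Rpl15, Rps18 and Rps2 gave 0.35 ± 0.22, 0.44 ± 0.21 and 0.70 ± 0.54, in the same direction and not past the threshold, and Rplp1 had 1 probe. In the fit over all probes, the probes that stood for Rps18, Rps2 and Rplp1 had adjusted p of 0.053, 0.055 and 0.056.

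**Figure D5:**
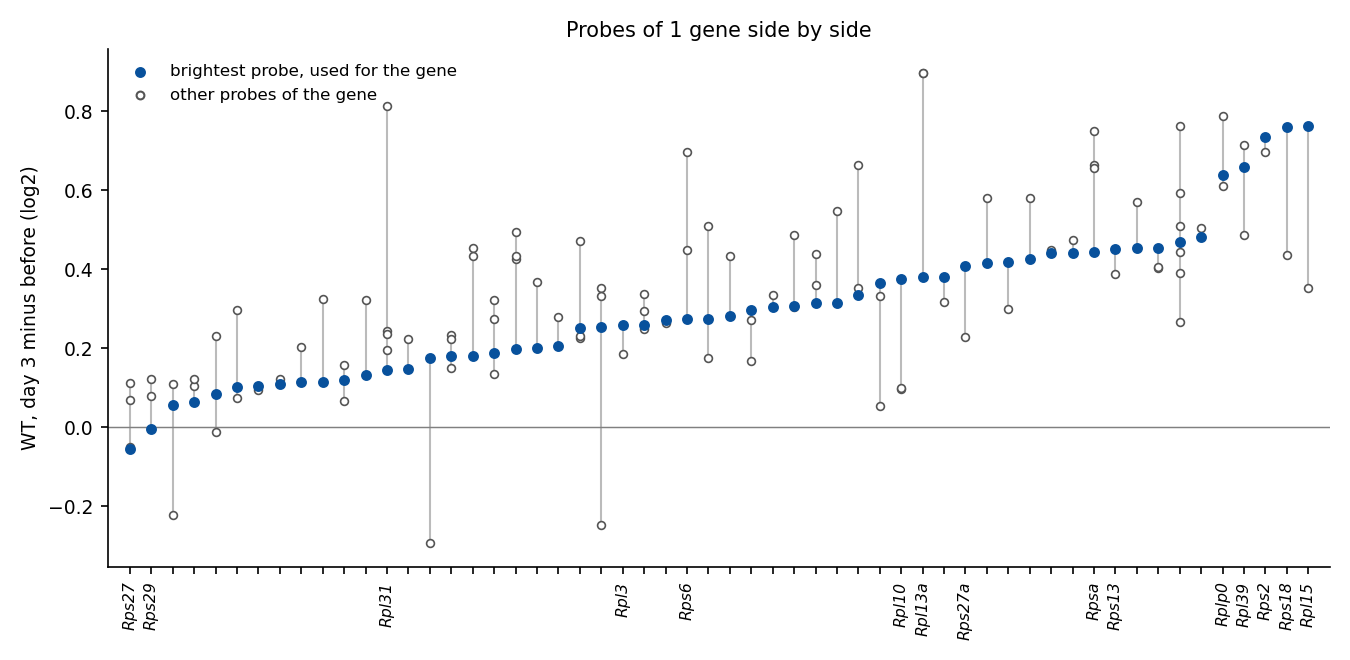
Log2 difference between WT at day 3 and before challenge for each kept probe of 56 ribosomal protein genes with 2 or more, ordered by the brightest probe (filled), with the gene's other probes as open circles and names under some of the genes described in the text. The median span of a gene's probes, over all 57 genes, is 0.17, and the open circles of Rpl13a at 0.90 and Rpl31 at 0.81 lie far above the filled ones.

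Ribosomal protein genes have many processed pseudogenes, and signal from near-identical copies on 1 probe cannot be told apart. Of the 185 probes with a position in the array's mm9 annotation, 11 from 5 genes were placed on another chromosome than the gene. The probes that stood for Rps27 (chr9:114891509-114891568, the gene being on chromosome 3) and Rps29 (chr2:172335021-172335079, the gene being on chromosome 12) were among them, and so were all 4 probes of Rps27 and all 3 of Rps29. The second probe of Rps2 was placed at chr17:42864841-42864900, away from the first at chr17:24857583-24857642, and it was the one with the wide error. The values of Rps27 and Rps29 are therefore uncertain as values of these genes. Rpl15 (chr14:19101657-19101716), Rps18 (chr17:34089041-34089202) and Rplp1 (chr9:61761259-61761318) had their probes on the gene's own chromosome.

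The rest of the translation machinery was described with lists beside the ribosomal proteins. For comparison, 3.59% of all genes tested were called higher and 1.09% lower in WT by limma, and 1.71% and 0.734% in smSocs3-KO. Of 75 mitochondrial ribosomal protein genes, 3 were called higher in WT and 0 lower by limma, with a median of 0.40 (0.22 with quantile normalization). They were Mrpl51, Mrpl52 and Mrps25, with differences of 0.79 ± 0.17, 0.70 ± 0.18 and 0.60 ± 0.14. Of 34 translation factors, 1 was called higher in WT, the poly(A)-binding protein Pabpc1, itself the product of a TOP mRNA, with 0.69 ± 0.16 (adjusted p = 0.040), and the list median was 0.38 (0.11 with quantile normalization). Of 52 ribosome biogenesis genes, 1 was called higher in WT, Bop1, which serves the maturation of the large subunit, with 1.05 ± 0.23 (adjusted p = 0.037), and the list median was 0.28 (0.11). In smSocs3-KO, 0 genes of these 3 lists were called in either direction, and the medians were 0.20, 0.26 and 0.38. Relative to WT before challenge, the mean of the biogenesis genes was -0.11, 0.23 and 0.09 on the smSocs3-KO arrays before challenge. At day 3 it was 0.31, 0.11 and 0.92, the last on replicate 5. Of 10 measured genes of ribosomal or associated proteins that the name rule misses, such as Fau, all 10 had positive differences in WT (against 48.4% of all genes) and 8 with quantile normalization, with medians of 0.34 and 0.13, and 0 were called. Without WT day 3 replicate 4, 11 mitochondrial ribosomal protein genes, 5 translation factors and 5 ribosome biogenesis genes were called higher in WT, and 1 translation factor lower. Of all 22761 genes, 2268 were then called higher and 1360 lower.

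Among 13 genes that set the output of TOP mRNAs, mTOR and its partners, S6 kinases, Larp1 and inhibitors of translation, the medians were -0.07 in WT and 0.01 in smSocs3-KO. Eif4ebp1, a repressor of translation that mTOR inactivates, was called higher in both genotypes. Its log2 signal was 3.92, 3.89 and 4.06 in WT before challenge, 5.19, 5.05 and 4.89 at day 3, 4.0042, 4.34 and 4.08 in smSocs3-KO before challenge and 5.41, 4.92 and 5.56 at day 3. Challenged and unchallenged arrays were far apart in both, with differences of 1.09 ± 0.19 (adjusted p = 0.032 by limma) and 1.15 ± 0.19 (adjusted p = 0.020). Eef2k, the kinase that halts elongation, was called higher in smSocs3-KO, at 1.29 ± 0.20 (adjusted p = 0.018), and not in WT, at 0.18 ± 0.20 (adjusted p = 0.58), with an interaction of 1.11 ± 0.28 (adjusted p = 0.70). At day 3 Eef2k was called higher in smSocs3-KO than in WT, at 1.18 ± 0.20 (adjusted p = 0.026), as were 0.958% of all genes. The WT arrays at day 3 all lay on slide 1 and the smSocs3-KO arrays on slide 2. With slide as a block, 0 of all genes were called in this comparison.

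Other cell types and the cell cycle moved beside the ribosomal protein genes. In WT, all 13 cell cycle genes measured were called higher, with log2 differences of 1.29 for Pcna to 4.96 for Bub1, and in smSocs3-KO 1 was called, Cdk1, the median was 2.27, and all 13 had an unadjusted p under 0.05. Without WT day 3 replicate 4, limma called 13 in WT and 12 in smSocs3-KO. Of 11 leukocyte markers, 1 was called higher in WT (Tyrobp) and 2 in smSocs3-KO (Cd14 and Cd68), with medians of 0.98 and 1.52, and without that array 8 and 9 were called. The smooth muscle markers had medians of -0.33 and -0.63, with 0 called, and without that array 5 were called lower in WT (median -0.63) and 3 in smSocs3-KO. Of 10 lymphocyte genes, Cd3d and Cd3g were called lower in WT, against 1.09% of all genes. In this list 3 genes had positive differences in WT, up to 0.14, and 0 in smSocs3-KO. Of 10 striated muscle genes, Tnnc2 was called lower in smSocs3-KO, against 0.734% of all genes (2 in each genotype without that array). Here 4 genes had positive differences in WT, up to 2.21, and 2 in smSocs3-KO, up to 0.61. The striated muscle medians were -0.34 and -0.72. Of 8 adipocyte and 4 erythroid genes, 0 were called in either genotype. The adipocyte genes had medians of 0.02 in WT and 1.08 in smSocs3-KO, where all 8 differences were positive, and a median interaction of 1.17. Arrays of 1 group differed widely. Relative to WT before challenge, the adipocyte mean was -1.43, 1.32 and 0.37 on the WT arrays at day 3. It was 0.58, -0.16 and -1.21 in smSocs3-KO before challenge and -0.57, 1.58 and 1.42 at day 3. The erythroid genes had medians of 1.11 and 0.45, with all 4 positive in both, but the arrays scattered widely. Relative to WT before challenge, the erythroid mean was 0.43, 1.81 and 1.21 on the WT arrays at day 3. It was -0.58, 0.26 and 0.28 in smSocs3-KO before challenge and 2.33, 0.69 and -1.28 at day 3. Over the arrays at day 3, the median shift of the ribosomal protein genes was lowest on WT replicate 4, the array with the lowest leukocyte mean and the highest smooth muscle mean of the 6, whereas the 3 smSocs3-KO arrays at day 3 had leukocyte means of 1.53 to 1.69 and shifts of 0.12 to 0.29. The cell cycle mean was lowest, at 1.75, on smSocs3-KO replicate 5, where the shift was 0.29. In bulk tissue, a change in the mix of cells and a change in mRNA per cell cannot be told apart, and the part of either in these differences was not tested.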

How the data were processed

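Aortic RNA was measured on 12 one-colour arrays, 3 in each of 4 groups. The authors deposited the scanner's linear intensity of every spot after background subtraction by Feature Extraction (version 10.7.1.1 in the file headers, 9.5.1.1 in the submitters' processing notes), and a table of intensity values for the same arrays that they had quantile normalized. From the deposited intensities, control and outlier spots were removed, the rest were put on the log2 scale and averaged by probe, and each array was scaled to its 75th percentile. The brightest probe stood for a gene, among those above background throughout 1 group or more. The group means of all 22761 genes were compared by limma 3.58.1 (R 4.3.3), two-sided, with Benjamini-Hochberg adjustment over all genes in each of 5 comparisons, and genes were called at an adjusted p under 0.05. The fit was tested on simulated data.

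The ribosomal protein genes and the other gene lists were chosen with earlier results of these data known. Genes named were Rps6, Rpl3, the paralogs, the stalk genes and Rpsa, the 3 highest and 3 lowest in each comparison, called members, members with disagreeing probes, and the leading gene of each other list. Alternatives covered normalization, background correction, filter, choice of probe, variance moderation, slide, replicate number and omission of each array; the scaling to the group's own median and the list medians under other settings were added after the data had been seen. With 3 arrays per group an exact permutation test cannot go below p = 0.1, so none was used. Sequences came from RefSeq (GRCm38.p6), probe positions from the array files (mm9). The arrays' number limits the precision. Some single genes are not reported here.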

Additional observations from a re-analysis of the deposited data

Results flagged for a closer look

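In 8 ribosomal protein genes (10%), all 3 WT arrays at day 3 lay on one side of the WT mean before challenge and all 3 arrays labelled smSocs3-KO on the other side of theirs, higher in WT and lower in smSocs3-KO. Over all 22761 genes, 489 (2.15%) had this pattern and 1.31% the opposite one. The interactions were -0.28 for Rpl13, -0.20 for Rpl26, -0.32 for Rpl31, -0.28 for Rpl35, -0.21 for Rpl9, -0.42 for Rps21, -0.39 for Rps24 and -0.52 for Rpsa. None of the 8 passed the limma test of the interaction, and with quantile normalization the median interaction of the whole group was -0.02. On that scale most of the 8 were not higher in WT at day 3. The WT differences were -0.07 for Rpl13, -0.14 for Rpl26, -0.07 for Rpl31, -0.11 for Rpl9, -0.19 for Rps21 and -0.05 for Rps24. Those of Rpl35 and Rpsa were 0.07 and 0.24. The interactions of Rpl13, Rpl26 and Rpl9 became 0.04, 0.01 and 0.06, and the others stayed negative. Groups of 3 arrays are too small for a test of single outlying arrays.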

How the results depend on the processing

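The count of genes called higher in WT, 4, moved most: it was 0 with quantile normalization, with the authors' table, without a filter, on slide 1 alone, in a fit of the 2 groups compared and with scaling to the group's own median, 1 with normexp and quantile normalization, 6 with genes above background on all 12 arrays, 2 with the mean of probes, 10 with slide as a block, 16 with trend and robust moderation and 44 with array weights. With arrays left out in turn it ranged from 0 to 19 (19 without WT day 3 replicate 4, 10 without smSocs3-KO replicate 1 before challenge). The count over all genes, 816, moved too, so the swing is not particular to the group. It was 0 on slide 1 alone and in the fit of 2 groups, 5 without a filter and 437 with quantile normalization. It was 1486 with trend and robust moderation, 1613 with slide as a block and 4501 with array weights. With array weights, 1 gene was called higher and 1 lower between genotypes before challenge, against 953 and 2305 of all genes. In the other comparisons 0 genes were called under every other alternative run.

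The median WT difference of 0.27 was 0.047 with quantile normalization, 0.044 with normexp and quantile normalization, 0.046 in the authors' table and 0.47 with median scaling, and 0.21 to 0.36 with arrays left out. That of smSocs3-KO, 0.038, was 0.25 with median scaling and -0.026 to 0.079 with arrays left out (negative without replicate 4 before challenge, at -0.0030, or replicate 5 at day 3). Between genotypes before challenge, 0.18 became 0.065, 0.077, 0.067 and 0.32 under the same 4 settings, 0.27 with slide as a block or on slide 1 alone, and 0.13 to 0.22 with arrays left out. At day 3, -0.063 became 0.069, 0.061, 0.069 and 0.099 under those 4 settings and 0.089 with slide as a block, and was -0.16 to -0.00091 with arrays left out. The interaction of -0.24 became -0.018, -0.029 and -0.019 with quantile normalization, normexp and quantile normalization and the authors' table, and -0.34 to -0.18 with arrays left out. Quantile normalization fixes the bright end of each array by construction, whereas median scaling does not. The causes of these shifts were not tested.

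Deviations of arrays with the same replicate number correlated between -0.40 and 0.46 over 11 pairs, with 4 above 0.1. Those of arrays with different numbers correlated between -0.44 and 0.48 over 43 pairs, with 8 above 0.1. So few pairs cannot settle whether the numbers pair the arrays, and the main fit did not use them. With the replicate block, 0 genes were called higher in WT, and the medians were 0.31 in WT, -0.038 in smSocs3-KO and -0.33 for the interaction.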
